A study of Mus musculus with 6 samples.

Results

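The 40 genes described here encode extracellular matrix proteins, matrix-binding proteins and receptors and growth factors of fibroblasts. They were taken from a named list and matched to the deposited tables by gene symbol, and all 40 were found among 46078 gene rows. Collagens of types I, III and V form the fibrils of connective tissue, while type IV collagen, laminins, nidogen and perlecan build the basement membrane on which an epithelium sits. Elastin is laid down on a scaffold of fibrillin, fibulins and microfibril-associated proteins. In the gut these proteins are made mostly by fibroblasts and related stromal cells of the lamina propria, which also secrete growth factors such as IGF1 and HGF that act on epithelial cells.

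RNA came from the fraction that an EDTA and DTT wash releases from mouse colon, in 3 wild type (WT) and 3 Lingo2-/- libraries from mice aged 2 months kept without a challenge. Lingo2 encodes a cell-surface protein with leucine-rich repeats. Strain, sex and the kind of mutation are not stated in these sources. Nothing says that each library came from its own animal, so a p-value reflects library-to-library spread, which could be technical. The labels call the material epithelial cells, and the 12 epithelial markers that were checked summed to 10990 to 13450 CPM (reads scaled to the size of the library) in each library. Most of each sum came from the mucin gene Muc2, at 6789 to 8454 CPM.

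Gene reads numbered 25010618 to 28029583 in the WT libraries and 7060769 to 13047682 in the Lingo2-/- libraries. Mitochondrial genes took 45.3% to 48.4% of them in WT and 35.7% to 39.8% in Lingo2-/- libraries. The library size behind the CPM was adjusted by TMM factors, which allow for such differences in composition. Lingo2 itself had 0, 7 and 0 reads in WT replicates 1, 2 and 3 and 1, 1 and 0 reads in Lingo2-/- replicates 1, 2 and 3, too few to check the genotype. A library without a read of a gene could still hold up to 3, equal to 0.112 to 0.138 CPM in WT and 0.207 to 0.374 CPM in Lingo2-/- libraries. These floors cover counting error only.

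The start regions of 4 of the genes are shown so that the sequence next to genes of differing outcome can be read beside their values. Each line holds the 250 bases before the RefSeq transcript start (GRCm38.p6), 5′ to 3′ on the gene's strand, for 2 genes that passed the test below (Fbln5 and Hgf) and 2 fibrillar collagens that did not (Col3a1 and Col5a1). They were taken where the annotation has no exon in the window. Capitals mark 4 motifs searched on both strands. The TATA box was searched by the letters TATAAA. The GC box was searched by the letters GGGCGG and the AP-1 site by TGACTCA. The last motif was the letters CCAAT of the CCAAT box.
Fbln5, chr12:101819120-101819369, minus strand: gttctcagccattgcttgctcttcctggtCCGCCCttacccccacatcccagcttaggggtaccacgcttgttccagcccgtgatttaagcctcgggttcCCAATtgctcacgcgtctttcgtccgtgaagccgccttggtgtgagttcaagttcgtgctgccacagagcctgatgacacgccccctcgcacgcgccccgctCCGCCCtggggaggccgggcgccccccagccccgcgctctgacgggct
Hgf, chr5:16553245-16553494, plus strand: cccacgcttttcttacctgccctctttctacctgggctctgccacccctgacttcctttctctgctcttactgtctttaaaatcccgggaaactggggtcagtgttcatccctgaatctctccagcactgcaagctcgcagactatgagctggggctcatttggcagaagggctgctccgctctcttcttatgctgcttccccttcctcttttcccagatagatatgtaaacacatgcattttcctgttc
Col3a1, chr1:45311288-45311537, plus strand: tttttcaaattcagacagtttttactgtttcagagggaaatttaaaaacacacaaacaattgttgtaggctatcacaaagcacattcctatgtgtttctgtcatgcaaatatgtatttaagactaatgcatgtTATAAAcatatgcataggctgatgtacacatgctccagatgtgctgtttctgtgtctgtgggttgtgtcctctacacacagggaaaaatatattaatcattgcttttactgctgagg
Col5a1, chr2:27886175-27886424, plus strand: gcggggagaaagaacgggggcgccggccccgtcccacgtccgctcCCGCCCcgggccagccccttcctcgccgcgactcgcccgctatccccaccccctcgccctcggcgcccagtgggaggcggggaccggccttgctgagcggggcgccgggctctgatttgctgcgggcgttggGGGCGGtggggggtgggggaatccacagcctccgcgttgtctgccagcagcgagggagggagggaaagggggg
The Hgf window held none of these letters, and that of Col3a1 held the TATA box letters 117 bases before the transcript start. That of Col5a1 held a pair of GC boxes, and that of Fbln5 a CCAAT box and GC boxes. The RefSeq table gives 32 windows for 27 of the 40 genes, and of these windows 46.9% held a GC box, 28.1% a CCAAT box, 9.38% a TATA box and 3.12% an AP-1 site. Over all 32851 windows of this length in the table the shares were 32.7%, 33.9%, 12.4% and 4.46%. These matches describe letters and not binding.

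The summed level of the 40 genes was low in the Lingo2-/- libraries and also in 1 WT library. Summed over the 40 genes, the level was 1946, 1825 and 735 CPM in WT replicates 1, 2 and 3 and 531, 1074 and 681 CPM in Lingo2-/- replicates 1, 2 and 3. WT replicate 3 therefore stood below Lingo2-/- replicate 2, and the groups overlapped. WT replicate 3 was the lowest WT library for 36 of the 40 genes and lay within the range of the Lingo2-/- libraries for 24. Lingo2-/- replicate 2 was the highest of its group for 33. The same counts were not made over all genes, so they describe these genes and do not set them apart from others. In bulk RNA, fewer stromal cells in the wash and less RNA of these genes per cell cannot be told apart.

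Of the 40 genes 37 passed the filter on low counts and were tested, and Mfap4, Sparcl1 and Cxcl12 were not. With a threshold of 0.05 on the adjusted p of edgeR's quasi-likelihood test, 7 fell, none rose and 30 did not pass. Of all 16757 tested genes 1.52% fell, 1.04% rose and 2.57% changed in either direction. The fitted log2 fold change lay below 0 for 36 of the 37 genes, against 49.9% of all tested genes, with a median of −0.997 beside 0.00098 for all tested genes. In 30 of the 37 every library was over the filter's level. Another 5 were over it in all WT libraries but not in all Lingo2-/- libraries, so they could be tested only because WT was high. The genes that fell were Igf1, Eln, Mfap5 and Nid1, which were over that level in all 6 libraries, and Lama2, Fbln5 and Hgf, which were under it in every Lingo2-/- library.

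**Figure D1:**
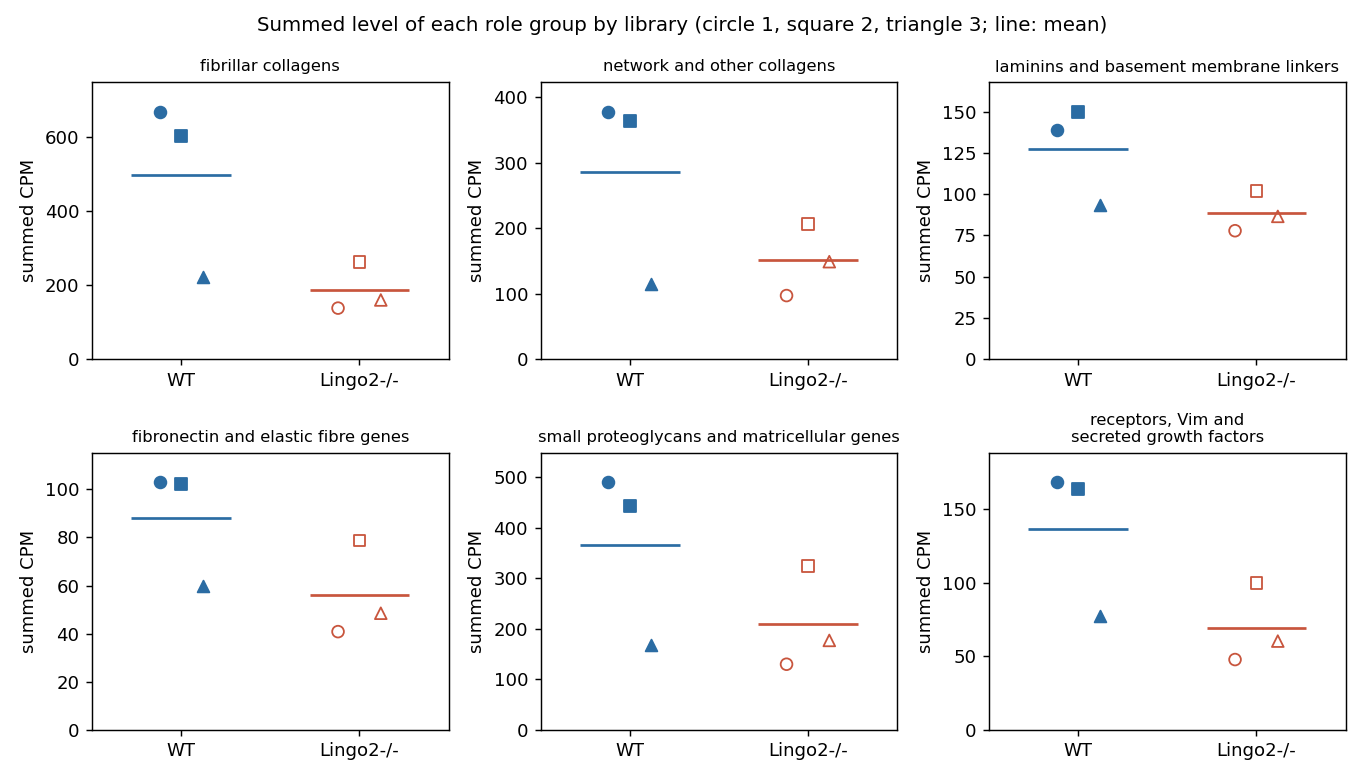
Summed TMM-scaled CPM (vertical axes, from 0) of the 6 role groups in each library, with WT filled and Lingo2-/- open, a line at each group's mean, and circle, square and triangle for replicates 1, 2 and 3. WT replicates 1 and 2 stand high in every panel, and WT replicate 3 lies among the Lingo2-/- libraries, as in the fibrillar collagens at 223 CPM against 138 to 263 CPM.

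Calls depended on single libraries and on the tool. DESeq2 called 10 of the 33 members to which it gave an adjusted p (2.63% of its genes were lower), and it gave none to Lama2 and Hgf. With limma voom 2 were called, Igf1 and Lama2 (1.17% lower), and edgeR without the filter on low counts called 13 of 40 (3.23% lower). Without WT replicate 3, the WT library with the lowest sum, 16 of 35 tested members fell, where 2.91% of all tested genes fell. Those added were Col3a1, Col5a1, Col6a1, Col6a3, Col18a1, Lama4, Lamb1, Lamc1, Fbln2 and Fbn1. Without Lingo2-/- replicate 3 edgeR called none of 38, where 0.605% of all tested genes fell, although 11 members had an unadjusted p under 0.05. The count was 2 without WT replicate 1, WT replicate 2 or Lingo2-/- replicate 1, where 1.31%, 1.24% and 1.07% of all tested genes fell. It was 1 (Lama2) without Lingo2-/- replicate 2, where 0.645% fell. In the authors' deposited table, which lists 31 of the 40 genes, 9 were lower at an adjusted p under 0.05, where 2.80% of the genes listed were lower. Of those 9 genes, 4 (Igf1, Eln, Mfap5 and Nid1) were also called by edgeR, and Col5a1, Lama4, Fbln1, Fbln2 and Fbn1 were not. Lama2, Fbln5 and Hgf are not among the 31 genes listed there.

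Igf1 and Hgf are the secreted growth factors of the list that passed. Igf1, which signals through the IGF1 receptor (chromosome 10, 87858265 to 87937042), stood at 15.6, 11.3 and 6.52 CPM in WT replicates 1, 2 and 3 and at 1.93, 2.24 and 1.85 CPM in Lingo2-/- replicates 1, 2 and 3. Every Lingo2-/- library lay below the lowest WT library, and WT replicate 3 was again the lowest of its group. The log2 fold change was −2.48 ± 0.35 (SE, edgeR adjusted p = 0.00943), a 5.56-fold lower level. This call held without any 1 WT library and was lost without any 1 Lingo2-/- library (edgeR adjusted p = 0.0565 to 0.0814). Hgf, the ligand of the Met receptor, was scarce, with 16, 25 and 15 reads in WT and 2, 2 and 1 reads in Lingo2-/- libraries (−2.21 ± 0.52, edgeR adjusted p = 0.0458). Leaving out any 1 Lingo2-/- library ended its call as well (edgeR adjusted p = 0.0962 to 0.165). In the fits without a WT library Hgf was not tested, so no fit without 1 library kept its call. It was also lost with limma voom and with the replicate number as a block. The third factor, the chemokine Cxcl12, had at most 9 reads in any library and was not tested.

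Igf1 is also made by macrophages. The 11 macrophage and dendritic cell markers summed to 82.9 to 97.7 CPM in WT and 64.0 to 122 CPM in Lingo2-/- libraries, so the groups overlapped. Most of each sum came from Lyz2, at 61.7, 53.5 and 50.6 CPM in WT and 37.9, 87.9 and 40.4 CPM in Lingo2-/- libraries. Of these markers Itgax and Tyrobp fell (log2 fold changes of −0.99 and −1.11), and Csf1r, Adgre1, Cd68 and the C1q chains did not pass. Their part in the level of Igf1 was not tested. Among 10 genes for receptors and binding proteins of these factors 1 fell, Igfbp5, an IGF-binding protein, from 47.6 ± 14.6 CPM (SD, n = 3) to 18.2 ± 1.93 CPM (log2 fold change −1.40 ± 0.25, SE, edgeR adjusted p = 0.0453).

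**Figure D2:**
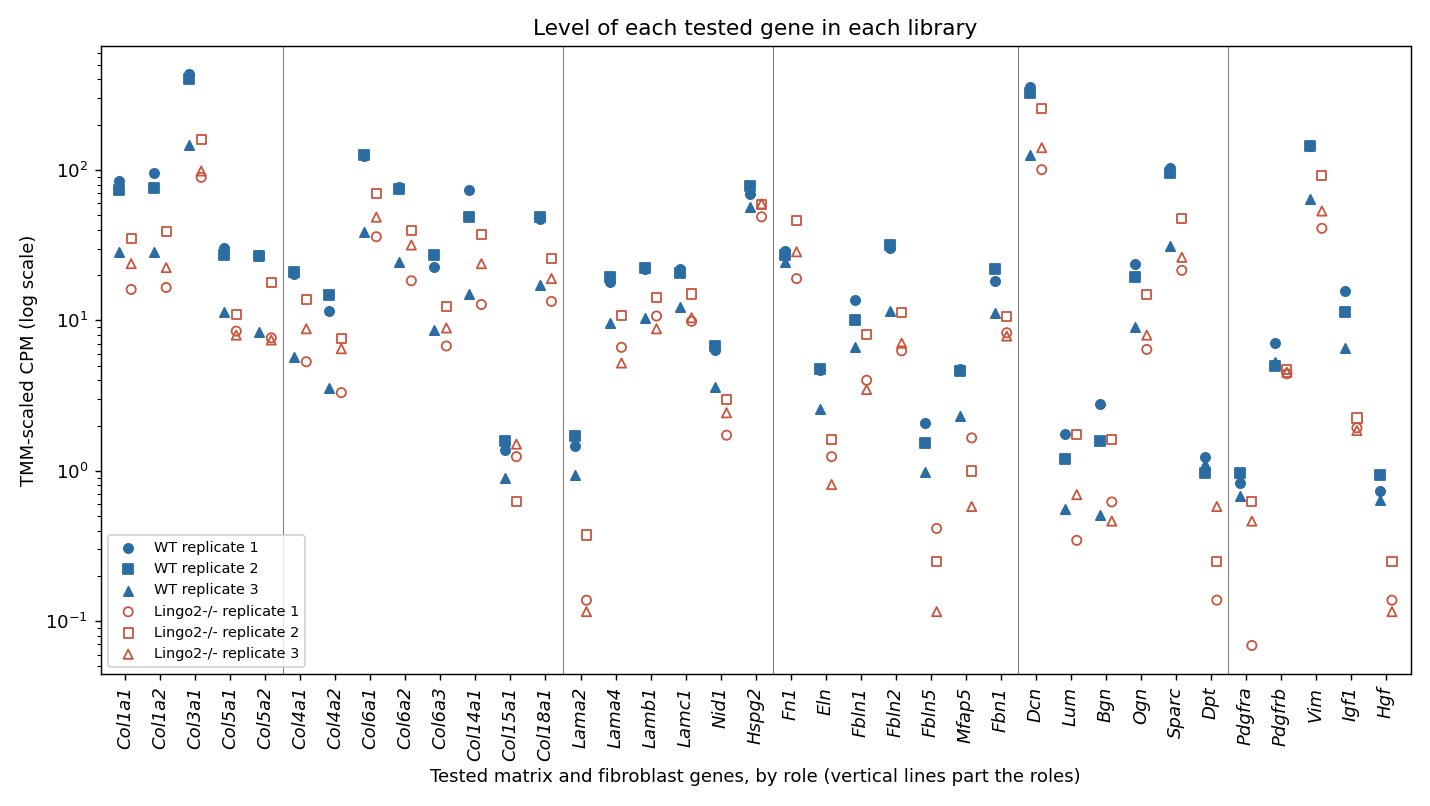
TMM-scaled CPM (vertical axis, log scale) of the 37 tested genes in each of the 6 libraries, by role from fibrillar collagens on the left to receptors and growth factors on the right, with WT filled and Lingo2-/- open. For Igf1 the 3 Lingo2-/- points lie together near 2 CPM under all WT points, while for Col6a1 the triangle of WT replicate 3 at 38.9 CPM lies among points of 36.0 to 69.6 CPM.

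The elastic fibre genes held 3 of the calls. Eln, which encodes elastin (chromosome 5, 134702593 to 134747323), was at 4.69, 4.77 and 2.56 CPM in WT and 1.24, 1.62 and 0.81 CPM in Lingo2-/- replicates 1, 2 and 3 (−1.71 ± 0.33, edgeR adjusted p = 0.0184). Mfap5, a microfibril-associated glycoprotein (chromosome 6, 122505845 to 122529290), was at 4.78, 4.59 and 2.30 CPM and at 1.66, 0.997 and 0.578 CPM (−1.75 ± 0.39, edgeR adjusted p = 0.0434). In both genes the highest Lingo2-/- library stayed below the lowest WT library. Fbln5, a fibulin needed for elastic fibre assembly, had 45, 41 and 23 reads in WT and 6, 2 and 1 reads in Lingo2-/- libraries (−2.39 ± 0.49, edgeR adjusted p = 0.0266). These calls were lost without WT replicate 1, WT replicate 2, Lingo2-/- replicate 2 or Lingo2-/- replicate 3, and that of Eln also without Lingo2-/- replicate 1 (edgeR adjusted p = 0.0526 to 0.151).

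The other elastic fibre genes did not pass edgeR's test. DESeq2 called 6 of the group, among them Fbn1, Fbln1 and Fbln2 (DESeq2 adjusted p = 0.00378, 0.0365 and 0.0437), and limma voom called none. Fbn1, the fibrillin that forms microfibrils, was at 18.3, 22.1 and 11.1 CPM in WT and 8.27, 10.6 and 7.87 CPM in Lingo2-/- libraries, which do not overlap (−0.96 ± 0.26, edgeR adjusted p = 0.102). Of its merged exons 20.1% are shared with a gene on the opposite strand, Gm9913, which had 8 reads in all. Fbln2, a fibulin of basement membranes and elastic fibres, was at 30.4, 31.6 and 11.5 CPM and at 6.27, 11.2 and 7.06 CPM (−1.62 ± 0.51, edgeR adjusted p = 0.194). Fbln1, a further fibulin, stood at 13.6, 10.03 and 6.69 CPM against 3.999, 8.10 and 3.47 CPM, and here WT replicate 3 lay below Lingo2-/- replicate 2. Mfap4 had 1 read in each WT library and none in the others, under the floor in both groups.

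Fn1, fibronectin, was the only tested member with a fitted value above 0. Its level was 29.0, 27.4 and 24.6 CPM in WT and 19.0, 46.0 and 28.6 CPM in Lingo2-/- libraries (0.18 ± 0.32, edgeR adjusted p = 0.800), and the value turned to −0.21 without Lingo2-/- replicate 2. The Lingo2-/- libraries spanned the whole WT range.

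In the basement membrane group 2 of 6 genes fell. Nid1, which links laminin to type IV collagen (chromosome 13, 13437551 to 13512269), was at 6.39, 6.75 and 3.62 CPM in WT and 1.72, 2.99 and 2.43 CPM in Lingo2-/- libraries (−1.28 ± 0.29, edgeR adjusted p = 0.0441). Its call was kept without WT replicate 3 and lost without any other library (0.0782 to 0.146). Lama2, the laminin alpha chain of muscle and mesenchyme (chromosome 10, 26980036 to 27619758), had 32, 46 and 22 reads in WT and 2, 3 and 1 reads in Lingo2-/- libraries (−2.79 ± 0.51, edgeR adjusted p = 0.0148). It kept its call without any 1 WT library and without Lingo2-/- replicate 2, and lost it without Lingo2-/- replicate 1 or 3 (edgeR adjusted p = 0.0704 to 0.0720).

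The other 4 genes of the group did not pass edgeR's test, and 1 of them, Lama4, was called by DESeq2 (DESeq2 adjusted p = 0.00572). Lama4, the alpha chain of vessel walls, was at 17.9, 19.4 and 9.54 CPM in WT and 6.62, 10.7 and 5.21 CPM in Lingo2-/- libraries (−1.08 ± 0.36, edgeR adjusted p = 0.190). Lamb1 and Lamc1, the beta and gamma chains shared by many laminins, had fitted values of −0.70 ± 0.35 and −0.66 ± 0.26. Lamb1 was at 21.8, 22.4 and 10.4 CPM against 10.7, 14.2 and 8.79 CPM, and Lamc1 at 21.9, 20.8 and 12.2 CPM against 9.86, 14.96 and 10.4 CPM. Hspg2, perlecan, a heparan sulfate proteoglycan, was closest to even, at 69.7, 78.7 and 56.5 CPM in WT and 48.8, 58.7 and 59.6 CPM in Lingo2-/- libraries (−0.30 ± 0.13, edgeR adjusted p = 0.235). Per kilobase of exon, Lama4 exceeded Lama2 by 15.2 ± 1.34 times in WT (SD, n = 3) and by 54.9 ± 14.1 times in Lingo2-/- libraries, the latter from at most 3 Lama2 reads. The ratio of Lamb1 to Lamc1 was 0.812 ± 0.0976 and 0.800 ± 0.1001.

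None of the 5 fibrillar collagen genes passed edgeR's test, with 2 at an unadjusted p under 0.05, 1 called by DESeq2 (Col5a1) and none by limma voom. Col3a1, the type III chain abundant in the gut wall, had the highest level among them, at 431.5, 400.4 and 146 CPM in WT and 89.4, 160.4 and 98.5 CPM in Lingo2-/- libraries (−1.49 ± 0.51, edgeR adjusted p = 0.228). WT replicate 3 lay below Lingo2-/- replicate 2. Col1a1 was at 84.1, 73.1 and 28.6 CPM against 16.1, 35.0 and 23.8 CPM, and Col5a1, which sets fibril diameter, at 30.1, 27.04 and 11.4 CPM against 8.48, 10.97 and 7.98 CPM. Col1a2 and Col5a2, the partner chains of types I and V, had fitted values of −1.39 ± 0.59 and −0.97 ± 0.63. Only Col5a1 of the 5 genes had groups that did not overlap. The fitted values of the group ranged from −1.49 to −0.97.

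None of the 8 network and other collagens passed, none had an unadjusted p under 0.05, and neither DESeq2 nor limma voom called any. In all 8 WT replicate 3 lay within the Lingo2-/- range. Col6a1, a chain of beaded filaments around cells, was at 124, 126 and 38.9 CPM in WT and 36.0, 69.6 and 48.6 CPM in Lingo2-/- libraries (−0.92 ± 0.55, edgeR adjusted p = 0.451). Its partner Col6a2 was at 77.0, 75.3 and 24.3 CPM and at 18.3, 39.5 and 31.7 CPM, and Col6a3 at 22.8, 27.1 and 8.604 CPM and at 6.76, 12.3 and 8.91 CPM. Col18a1, the source of endostatin, was at 47.2, 49.0 and 17.3 CPM and at 13.4, 25.7 and 19.0 CPM. The basement membrane chains Col4a1 and Col4a2 had fitted values of −0.81 ± 0.65 and −0.84 ± 0.65. Col14a1, a fibril-associated collagen, was at −0.92 ± 0.73 and Col15a1, a basement membrane collagen with 5 to 42 reads per library, at −0.17 ± 0.36. Col4a1 and Col4a2 lie head to head on chromosome 8, from 11198423 to 11312826 and from 11312805 to 11449287, and share 22 exon bases on opposite strands.

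The proportions of partner chains overlapped between the groups. Per kilobase of merged exon, Col1a1 exceeded Col1a2 by 1.67, 1.82 and 1.90 times in WT and 1.84, 1.71 and 2.01 times in Lingo2-/- libraries. For Col4a1 over Col4a2 the ratio was 1.42 ± 0.160 and 1.41 ± 0.198 (SD, n = 3), and for Col6a1 over Col6a2 3.095 ± 0.0767 and 3.33 ± 0.409. For each of these pairs the ranges of the groups overlapped, and no test was made. The size of a ratio depends on the merged exon lengths, which take in every annotated transcript.

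**Figure D3:**
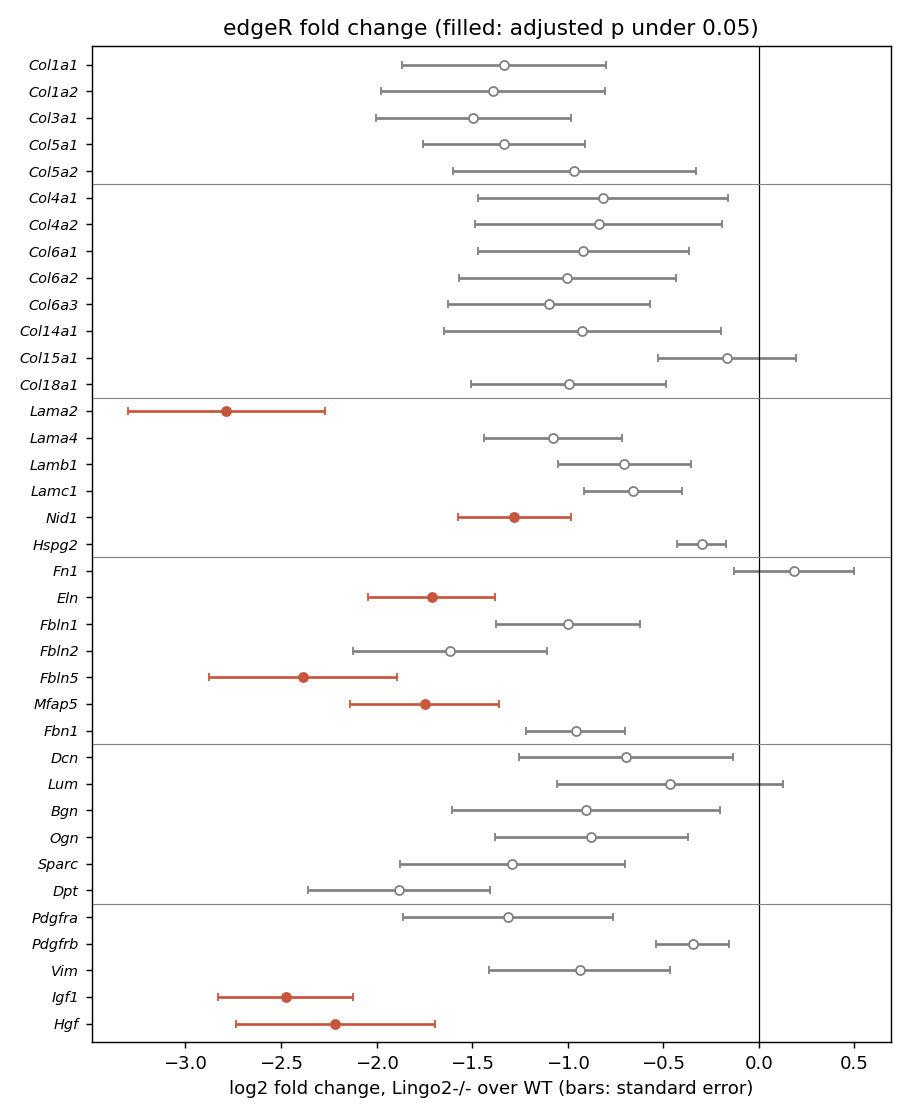
Fitted log2 fold change of Lingo2-/- over WT (horizontal axis) with its standard error for the 37 tested genes, by role, filled where edgeR's adjusted p was under 0.05. The 7 filled genes lie between −2.79 and −1.28, the collagens have bars of 0.36 to 0.73 to either side, and Fn1 alone lies above 0.

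Among the small proteoglycans and matricellular genes none of 6 tested passed edgeR, 1 had an unadjusted p under 0.05, and neither DESeq2 nor limma voom called any. Dcn, decorin, a leucine-rich proteoglycan that binds collagen fibrils, had the highest level per kilobase of all 40 genes, at 45.9 ± 21.4 RPKM (CPM divided by kilobases of merged exon) in WT and 28.5 ± 14.0 in Lingo2-/- libraries (SD, n = 3). In CPM it stood at 357, 323 and 125 in WT and 100.5, 258 and 141 in Lingo2-/- replicates 1, 2 and 3 (−0.70 ± 0.56, edgeR adjusted p = 0.572). Lum, lumican, of the same family and on the same chromosome, reached only 0.476 ± 0.244 RPKM in WT. Ogn and Bgn, also leucine-rich proteoglycans, had fitted values of −0.88 ± 0.50 and −0.90 ± 0.70, and Sparcl1, a relative of Sparc, had 11, 20 and 2 reads in WT and 2, 1 and 1 reads in Lingo2-/- libraries. Sparc, a collagen-binding matricellular protein, was at 103, 95.7 and 31.4 CPM and at 21.5, 47.6 and 26.3 CPM. Dpt, dermatopontin, had 27, 26 and 26 reads in WT and 2, 2 and 5 reads in Lingo2-/- libraries (−1.88 ± 0.48, edgeR adjusted p = 0.0584), and WT replicate 3 was not low. It passed without the filter, in a fit over more genes.

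Vim, the intermediate filament of mesenchymal cells, which lymphocytes also express, was at 144, 145 and 63.9 CPM in WT and 41.0, 91.7 and 53.3 CPM in Lingo2-/- libraries (−0.94 ± 0.47, edgeR adjusted p = 0.379). The PDGF receptors that mark fibroblasts and pericytes did not pass either. Pdgfrb, which marks pericytes more strongly, was at 7.04, 4.997 and 5.32 CPM against 4.41, 4.74 and 4.51 CPM (−0.35 ± 0.19, edgeR adjusted p = 0.356). Pdgfra had 18, 26 and 16 reads in WT and 1, 5 and 4 reads in Lingo2-/- libraries (−1.31 ± 0.55, edgeR adjusted p = 0.227). In both genes the groups did not overlap and WT replicate 3 was above every Lingo2-/- library.

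Over the 40 genes the groups did not overlap in 14, all lower in Lingo2-/- libraries, while among all tested genes the share with every Lingo2-/- library below every WT library was 11.8%. One of the 14 is Mfap4, with reads under the floor. WT replicate 3 held 36.8% or less of the mean of WT replicates 1 and 2 for Col3a1, Col1a1, Col6a1, Sparc and Dcn. For Vim and Hspg2, whose mean CPM were among the 6 highest in WT, it held 44.2% and 76.1%. For Igf1, Mfap5, Eln, Fbln5, Nid1, Lama2 and Hgf it held 48.4% to 76.6%. How far WT replicate 3 lies below the others is part of what the test uses, so this is a description of the calls.

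Expressed per 1000 reads of the 40 genes, which sets aside how much matrix RNA each library held, the share was lower in every Lingo2-/- library than in any WT library for 10 genes, among them Mfap4 with reads under the floor, and higher for 2, Fn1 and Dcn. Lama2, Fbln5 and Hgf, with 1 to 6 reads in each Lingo2-/- library, are also among the 10. Such a share has no counterpart over all genes to set the counts against, so the counts are a description only. Col3a1 took 222, 219 and 198 of 1000 in WT and 168, 149 and 145 in Lingo2-/- replicates 1, 2 and 3. Dcn took 184, 177 and 170.3 in WT and 189, 239.9 and 207 in Lingo2-/- libraries. Igf1 took 8.01, 6.21 and 8.87 in WT and 3.63, 2.09 and 2.72 in Lingo2-/- libraries. Here WT replicate 3 lay with the other WT libraries for all of these genes. Fn1 took 14.9, 15.02 and 33.45 against 35.7, 42.8 and 41.96, with WT replicate 3 next to the Lingo2-/- libraries.

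As a group the fibrillar collagens took 34.4%, 33.1% and 30.3% of the 40 genes' reads in WT and 26%, 24.5% and 23.5% in Lingo2-/- libraries. For the laminins and basement membrane linkers the shares overlapped, at 7.15%, 8.21% and 12.7% against 14.7%, 9.50% and 12.7%. The shares sum to the whole, so a fall in Col3a1 raises the others. No test was made of these shares.

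**Figure D4:**
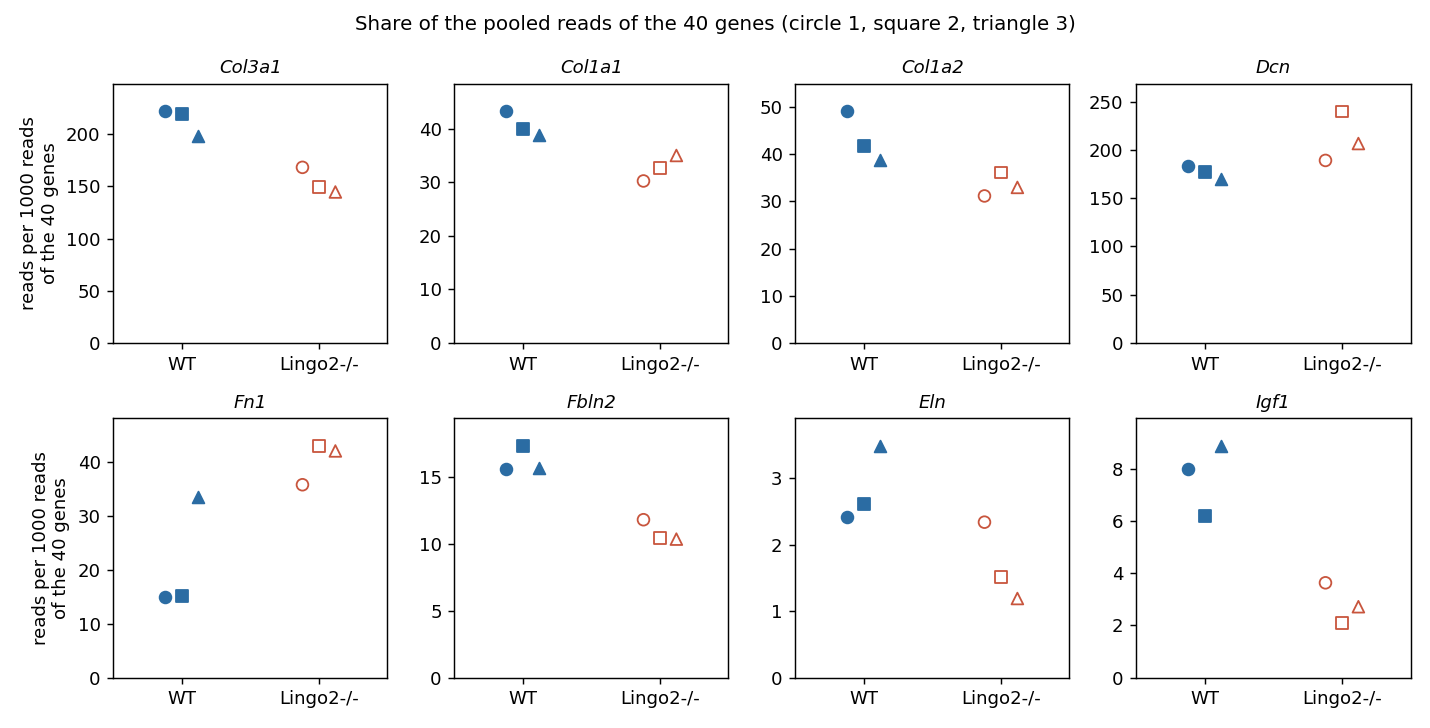
Reads per 1000 reads of the 40 genes (vertical axes, from 0) for 8 genes in each library, with WT filled and Lingo2-/- open, and circle, square and triangle for replicates 1, 2 and 3. For Col3a1 all WT points lie at 198 or more and all Lingo2-/- points at 168 or less, Igf1 and Fbln2 are also lower in every Lingo2-/- library, and Fn1 is higher.

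Of the 101 tested genes in 7 lists of matrix processing, signalling and receptors, 3 fell and none rose, beside the 1.52% of all tested genes that fell. None of 16 collagen processing and crosslinking genes passed edgeR (3 at an unadjusted p under 0.05, 1 called by DESeq2, none by voom), with a median log2 fold change of −0.25. Pcolce, an enhancer of procollagen cleavage, was at −0.67 ± 0.26 and the lysyl oxidase Loxl4 at −0.62 ± 0.26. None of 13 proteases and inhibitors passed (3 at an unadjusted p under 0.05, 2 by DESeq2, none by voom; median −0.18). The inhibitors Timp3 and Timp2 were at −1.25 ± 0.34 and −0.93 ± 0.28.

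In the TGF-beta and PDGF list 1 of 20 genes fell, the receptor Tgfbr2, from 75.5 ± 10.52 to 53.4 ± 4.52 CPM (−0.50 ± 0.11, edgeR adjusted p = 0.0408). Of 15 integrins and other matrix receptors Itga1, a collagen-binding integrin chain that T cells also carry, fell from 24.0 ± 2.06 to 16.0 ± 0.625 CPM (−0.58 ± 0.11, edgeR adjusted p = 0.0148). None of 12 crypt niche signals of fibroblasts passed (6 at an unadjusted p under 0.05, 3 by DESeq2, none by voom). Their median was −0.73, with Bmp4, a BMP ligand, at 3.68, 3.58 and 1.19 CPM in WT and 0.414, 0.997 and 0.694 CPM in Lingo2-/- libraries (edgeR adjusted p = 0.0762). A list of genes of the epithelial basement membrane and its cell attachments (hemidesmosomes), with receptor chains such as Itga6 and Itgb4, had a median of −0.06 over 15. None of these genes passed (2 at an unadjusted p under 0.05, 1 by DESeq2, none by voom), and which cells made their RNA was not tested. Their summed level was 1904, 1569 and 1711 CPM in WT and 1635, 1908 and 1724 CPM in Lingo2-/- libraries. Of these genes Nid2, a nidogen, was at −0.79 ± 0.27 (edgeR adjusted p = 0.175).

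Among 15 other fibroblast markers WT replicate 3 was the lowest WT library for 13 and lay within the Lingo2-/- range for 11. These counts too were not made over all genes. The podoplanin gene Pdpn was at 13.3, 12.2 and 4.81 CPM in WT and 3.52, 6.11 and 4.51 CPM in Lingo2-/- libraries, and Cd34 at 20.5, 19.1 and 8.65 CPM and at 7.17, 11.1 and 6.13 CPM. These genes were chosen after their values were seen. Of 12 tested fibroblast markers 1 fell, Thy1, which T cells also express, from 13.2 ± 1.86 to 4.62 ± 0.835 CPM (−1.51 ± 0.17, edgeR adjusted p = 0.000682). The list summed to 638 to 2081 CPM in WT and 510 to 817 CPM in Lingo2-/- libraries, mostly from the complement gene C3. Without C3 the sums were 311.8, 220.1 and 170.5 CPM in WT and 147.4, 166 and 177.2 CPM in Lingo2-/- libraries, and the groups overlapped. The largest part of these sums was Gsn, at 146.3, 90.92 and 97.15 CPM in WT and 90.94, 85.13 and 113.1 CPM in Lingo2-/- libraries. The transcription factors Tcf21, Twist1 and Twist2 stayed at or below 0.374 CPM in every library.

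Markers of other cell types were checked in the same libraries. All 12 tested T cell and intraepithelial lymphocyte markers fell, from sums of 451.5, 538.9 and 524.5 CPM in WT to 218, 197 and 188 CPM in Lingo2-/- libraries, and WT replicate 3 was not low among them. The smooth muscle markers summed to 65.6 to 76.9 CPM in WT and 47.8 to 59.0 CPM in Lingo2-/- libraries. None of 8 tested passed (3 at an unadjusted p under 0.05, none by DESeq2 or voom), and Actg2 and Lmod1 stayed at or below 0.249 CPM. Endothelial and pericyte markers summed to 22.5 to 33.9 CPM and 23.6 to 26.9 CPM. Among 10 tested Vwf rose from 2.70 ± 0.104 to 5.24 ± 0.174 CPM and none fell. Of the 10 tested, 3 had an unadjusted p under 0.05, and DESeq2 called 2 and voom 1. Their median log2 fold change was −0.17, with a lowest value of −1.21. Esam was at 12, 9.55 and 4.30 CPM in WT and 3.79, 3.86 and 3.47 CPM in Lingo2-/- libraries. Pecam1 was at 7.54, 8.35 and 7.20 CPM and at 6.62, 8.23 and 5.90 CPM, and its groups overlapped. Cdh5 stayed at or below 0.368 CPM and Rgs5 at or under 3 reads in every library. Neuron and glia markers summed to 3.73 to 4.46 CPM and 3.86 to 5.72 CPM, and none of 3 tested passed (none at an unadjusted p under 0.05 or by DESeq2 or voom). None of 8 B and plasma cell markers passed edgeR (2 at an unadjusted p under 0.05, 1 by DESeq2, none by voom), nor any of 5 erythrocyte genes (5, 5 and none), whose sums were 373.1 to 624.8 CPM in WT and 218.3 to 367.7 CPM in Lingo2-/- libraries. The part of these cell types in the levels of the 40 genes was not tested.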

How the data were processed

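Read counts per gene were deposited by the authors as whole numbers, not normalized. Trimmomatic 0.39, STAR, HTSeq, DESeq2 and the build GRCm38 are named, per the submitters' processing notes. Which annotation was counted, and whether counting used strand, is not stated in these sources, which leaves genes with an opposite-strand overlap uncertain. Per the labels' protocols the libraries came from a stranded total RNA kit with removal of ribosomal RNA. Summary lines of the counting tool entered neither the library sizes nor any test. They held 18.5% to 22.1% of alignments in no gene in WT and 23.6% to 27.6% in Lingo2-/- libraries. The authors' deposited comparison holds a normalized signal (in each library the deposited count multiplied by a constant, for 100% of values above 0 at a relative tolerance of 1e-06), log2 fold changes, a test score and p-values, of which the log2 fold changes and adjusted p-values were used.

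Symbols, positions and merged exon lengths came from GENCODE M21 (GRCm38). The test was edgeR's quasi-likelihood F test of genotype (edgeR 4.0.16, R 4.3.3) after filterByExpr, with TMM factors and robust dispersions, adjusted by Benjamini-Hochberg over 16757 genes at a threshold of 0.05. The filter's level was 0.525 CPM. The SE of a log2 fold change is its size over the root of its F value. The fit was tested on simulated counts, where 18 of 179 calls were false, a share above the threshold of 0.05. Calls with an adjusted p just under 0.05, such as those of Nid1, Mfap5 and Hgf, are therefore less sure than the threshold states. The alternatives used DESeq2 1.42.0 and limma 3.58.1 besides edgeR. Members and lists were chosen with earlier results of these data known. Every member was accounted for, and values per library were given for members called in any fit, the 2 highest per kilobase in each role and the member with the largest change in each. In other lists up to 4 called genes, or the 2 with the smallest p, were named. Further genes of the lists, such as Pdpn, Cd34, Esam and Cdh5, were named outside this rule after their values were seen. Some genes of these lists are not reported here. No pair of replicates agreed within sampling noise (chi-square per degree of freedom 8.40 to 19.4).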

Additional observations from a re-analysis of the deposited data

Results flagged for a closer look

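Reads in no annotated gene lie outside the measurement of the 40 genes, and their share was higher in every Lingo2-/- library than in any WT library. It was 25.7%, 27.6% and 23.6% of alignments in Lingo2-/- replicates 1, 2 and 3 and 18.5% to 22.1% in WT. Within Lingo2-/- the library with the highest share, replicate 2, had the highest summed level of the 40 genes (1074 CPM). Within WT the order was the opposite, and replicate 3 had the highest share (22.1%) and the lowest summed level (734.8 CPM). The part of this share in the levels was not tested.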

How the results depend on the processing

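The 16 alternatives gave 570 values for tested members, of which 505 kept their direction and side of the threshold, 36 lost a call, 25 gained one and 4 changed sign. Those 4 were Col15a1 without WT replicate 2 (0.0111) or Lingo2-/- replicate 2 (0.0642), Lum without Lingo2-/- replicate 1 (0.0515) and Fn1 without Lingo2-/- replicate 2 (−0.21), and none of them was called. Without 1 library at a time these genes ranged from −0.374 to 0.0642, −1.26 to 0.0515 and −0.21 to 0.457. The count of members called, 7, was 13 with no filter on low counts and 4 with a filter at 1 CPM in 3 libraries. It was 2 with limma voom and 3 with counts thinned to the smallest library, where fewer genes were tested. The thinned counts gave Fbn1, Igf1 and Mfap5, of which 2 were among the 7. There Eln and Nid1 lost their calls (edgeR adjusted p = 0.141 and 0.0864). Lama2, Fbln5 and Hgf were not tested in the thinned counts or with the filter at 1 CPM. Leaving out 1 library gave 0 to 16 members. The cause of these differences was not tested, beyond the smaller number of libraries or genes. Over all genes the 430 calls became 1493 with no filter, 420 with the filter at 1 CPM, 350 with limma voom and 354 with thinned counts. They became 655 with the DESeq2 Wald test and 174 to 674 without 1 library. The 3 calls in the pathway lists became 18 with no filter, 13 with DESeq2 and 0 to 16 without 1 library. With edgeR the count was 0 without WT replicate 2 (22 of 98 at an unadjusted p under 0.05) and without Lingo2-/- replicate 2 (29 of 103). The 16 calls in the cell type lists became 28 with no filter and 25 with DESeq2. The members' median ranged from −1.41 to −0.77.

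Replicate numbers did not pair the libraries: deviations from the group means correlated at −0.126, 0.128 and −0.022 across genes for numbers 1, 2 and 3. With the number as a replicate block 9 members and 6 pathway genes were called, among 360 calls over all genes. Of the 7 members 6 were among the 9, all but Hgf. Lower depth limits the Lingo2-/- libraries: Lama2, Fbln5 and Hgf had 1 to 6 reads each there.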
